A study of Mus musculus with 11 samples.

Results

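The 10 genes described here build, signal at or terminate transmission across the neuromuscular junction: Musk, Rapsn, Dok7, Lrp4, Agrn, Ache, Colq, Prima1, Erbb3 and Etv5. They were chosen by name, and all probe sets annotated to these symbols were taken, 16 of the 45101 on the array. Signals came from 11 Affymetrix arrays of tibialis anterior, a shin muscle of the mouse. The groups were denervated muscle of runx1f/-; MCK::cre mice (3 arrays), denervated muscle of runx1f/- control mice (3 arrays), innervated muscle of runx1f/-; MCK::cre mice (2 arrays) and innervated muscle of runx1f/- control mice (3 arrays). Every animal, controls included, thus carried 1 floxed and 1 null copy of Runx1, a transcription factor gene. MCK::cre places Cre recombinase under the muscle creatine kinase promoter, which is active in muscle fibres, so that an effect of Cre itself and an effect of targeting Runx1 cannot be told apart. Denervation lasted 3 days by the titles, though for denervated control 3 the treatment note says 5 days. Ages are not given, and the labels do not say that the arrays of a group are separate animals, so that each p measures only the spread between these samples. Runx1 itself averaged 21346 and 24583 in denervated MCK::cre and control muscle, and 341.6 and 400.8 in innervated MCK::cre and control muscle. The genotypes did not differ by limma in either state (adjusted p = 0.884 and 0.998), and where the probe set lies relative to the floxed part is not given, so that it checks nothing about the deletion.

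At the neuromuscular junction, the motor nerve terminal releases agrin, which binds LRP4 on the muscle fibre. LRP4 then activates the receptor tyrosine kinase MuSK, with DOK7 as its cytoplasmic activator, and rapsyn holds acetylcholine receptors in dense clusters beneath the nerve. Acetylcholinesterase ends each signal by cleaving acetylcholine, and it is held in place either by the collagen tail ColQ in the synaptic basal lamina or by the membrane anchor PRiMA. ERBB3 is a neuregulin receptor of Schwann cells and muscle, and ETV5 (also called Erm) is an ETS transcription factor enriched in the nuclei beneath the synapse. When a muscle loses its nerve, electrical activity stops, and many synaptic genes that had been restricted to those nuclei become active along the whole fibre.

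RefSeq windows (GRCm38.p6) that run from 250 bases before to 50 after a transcript start were found for 6 of the 10 genes. Those of Musk, Ache and Prima1 are shown because Musk had the largest rise with denervation among the members, while Ache and the gene of its anchor had the largest falls in both genotypes. The Musk window lies at chr4:58285712-58286011 on the plus strand, the Ache window at chr5:137288004-137288303 on the plus strand, and the Prima1 window at chr12:103242097-103242396 on the minus strand, inside the RefSeq interval of the gene. Capitals mark E-boxes, hexamers of the pattern CANNTG, a pattern that reads alike on both strands. Myogenic factors such as myogenin bind E-boxes, but which factor binds a given form, such as CACGTG in the Ache window, was not tested. Positions of genes below are RefSeq intervals of the same build.
Musk: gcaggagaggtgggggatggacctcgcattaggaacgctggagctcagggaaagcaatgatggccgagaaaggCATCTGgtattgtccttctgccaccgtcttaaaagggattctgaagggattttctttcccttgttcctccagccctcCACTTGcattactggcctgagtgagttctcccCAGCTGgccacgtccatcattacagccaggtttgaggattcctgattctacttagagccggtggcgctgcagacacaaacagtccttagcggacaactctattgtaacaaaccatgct
Ache: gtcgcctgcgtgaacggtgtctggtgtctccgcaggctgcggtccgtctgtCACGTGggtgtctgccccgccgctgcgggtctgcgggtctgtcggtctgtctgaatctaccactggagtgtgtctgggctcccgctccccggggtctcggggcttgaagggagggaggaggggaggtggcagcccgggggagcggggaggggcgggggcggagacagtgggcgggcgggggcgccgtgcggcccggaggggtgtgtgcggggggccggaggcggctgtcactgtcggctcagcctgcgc
Prima1: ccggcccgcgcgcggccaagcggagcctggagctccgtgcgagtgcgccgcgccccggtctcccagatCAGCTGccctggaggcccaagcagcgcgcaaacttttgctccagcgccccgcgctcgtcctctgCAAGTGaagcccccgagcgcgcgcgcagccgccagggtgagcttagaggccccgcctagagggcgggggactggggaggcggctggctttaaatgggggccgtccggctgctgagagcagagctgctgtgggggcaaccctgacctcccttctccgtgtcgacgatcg
The Musk window holds 3 E-boxes, the Prima1 window 2 and the Ache window 1. Of all 32851 windows of the same length, 72.3% hold at least 1 E-box, 39.6% at least 2 and 17.6% at least 3. The N-box CCGGAA, an ETS-type element described in synaptic genes, and the RUNX hexamer TGTGGT were searched on both strands and occur in 14.9% and 16.8% of all windows. Neither string of letters is in the 3 windows shown.

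Denervation moved the members in both directions. In MCK::cre muscle 4 members rose, Musk, Rapsn, Lrp4 and Erbb3, and 3 fell, Ache, Prima1 and Etv5. In control muscle 2 rose, Musk and Rapsn, and the same 3 fell. Colq had no probe set bright enough to be tested, which left 9 tested genes, each represented by its brightest probe set. Dok7 and Agrn passed in neither genotype. Between genotypes the only member that passed was Prima1, which was higher in denervated MCK::cre muscle than in denervated control muscle.

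These calls are limma adjusted p under 0.05 over all 26170 probe sets kept, on the scale log2(signal + 16), and all changes below are on that scale. In MCK::cre muscle 7 of 9 members passed, where 30.5% of all 12214 genes did, and in control muscle 5 of 9 passed, where 34.4% of all genes did. The higher count in MCK::cre muscle did not hold when arrays were left out. It was 4 without denervated MCK::cre 2, while the count in control muscle stayed at 5 or more with any 1 array left out. The median log2 change of the 9 members was 0.49 in MCK::cre muscle and 0.19 in control muscle, against -0.01 for all genes in both. All 5 members that passed in control muscle also passed in the same direction in MCK::cre muscle, which is 71.4% of the member calls there. Among all genes, calls shared in direction were 76.3% of those in MCK::cre and 67.6% of those in control muscle. Arrays were used as the authors had scaled them, and the zero of a change depends on that choice: centring on the hybridisation spike-in RNAs moved the median of all genes to 0.46 in MCK::cre muscle and 0.82 in control muscle.

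The spike-in probe sets averaged 13.37 on denervated and 14.02 on innervated arrays (log2 signal). With that centring the called members were 5 higher and 1 lower in MCK::cre muscle, and 6 higher and 2 lower in control muscle. With arrays scaled to a common median, which moved the median of all genes to 0.30 and 0.07 in MCK::cre and control muscle, they were 4 higher and 1 lower, and 2 higher and 3 lower. Shares of all genes called were counted only with the deposited scaling, here and for the lists below. Counts with other scalings thus have no share to be set against. Of the 9 members, 6 in MCK::cre and 5 in control muscle lay above the median of all genes as deposited. Spike-in centring and median scaling shift all genes of an array nearly alike, so these counts could hardly change with them. With quantile normalization, which could change them, they were again 6 and 5. Denervated and innervated arrays did not overlap for 8 of 9 members in MCK::cre muscle, where this held for 60.7% of genes, and for 5 of 9 in control muscle, where it held for 46.7% of genes.

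**Figure D1:**
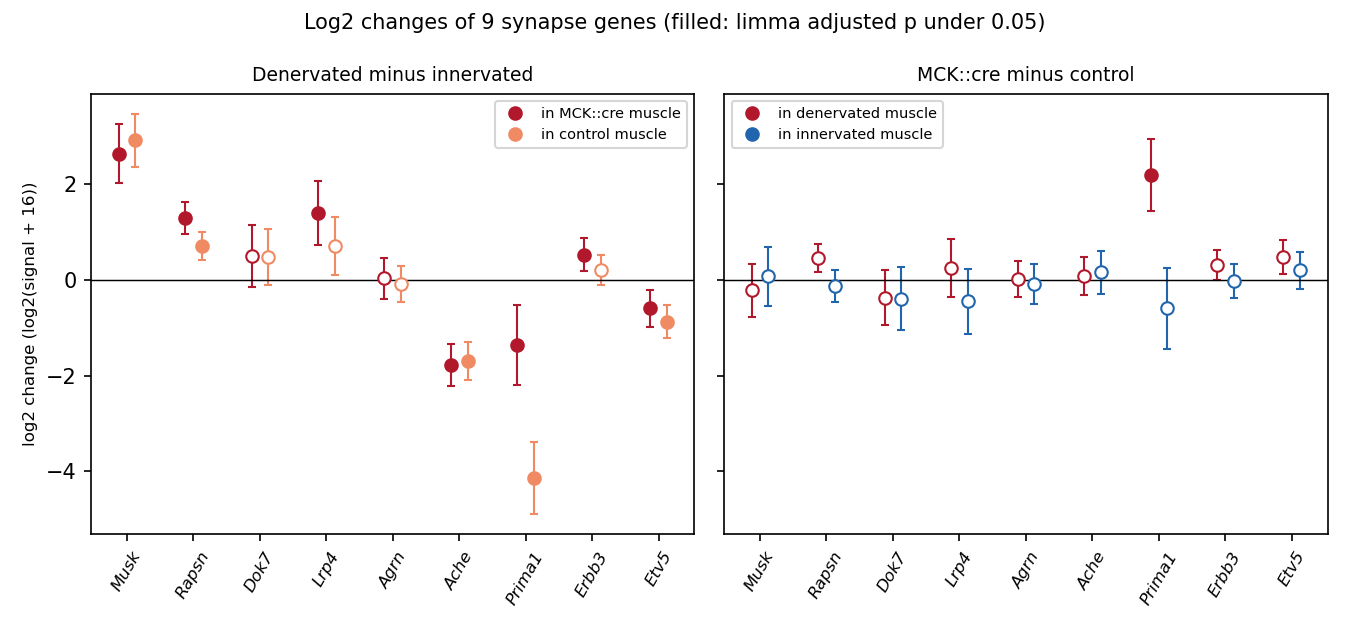
Log2 changes of the 9 tested genes with 95% confidence intervals from limma, denervated minus innervated on the left and MCK::cre minus control on the right. Filled points passed at an adjusted p under 0.05. Musk lies highest and Ache and Prima1 lowest on the left, and Prima1 at 2.18 is the only filled point on the right.

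Musk, the receptor tyrosine kinase of the synapse (chr4:58285729-58377848), showed the largest rise. Its probe set read 7178, 9486 and 8348 on the denervated MCK::cre arrays, 11121, 11436 and 7046 on the denervated control arrays, 1080.3 and 1635 on the innervated MCK::cre arrays, and 1237, 1778 and 929.7 on the innervated control arrays. Every denervated array lay at least several-fold above every innervated array, and within each state the genotypes overlapped. Musk rose 6.17-fold in MCK::cre muscle (log2 change 2.62 ± 0.29 SE, limma adjusted p = 2.55e-05) and 7.51-fold in control muscle (log2 change 2.91 ± 0.26 SE, limma adjusted p = 2.91e-06). The genotypes differed by -0.22 in denervated muscle, with a 95% interval of -0.77 to 0.33 (limma adjusted p = 0.843).

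Rapsn, the gene of the receptor-clustering scaffold rapsyn (chr2:91035472-91045729), rose less than Musk. Its signals were 7293, 8108 and 8663 in denervated MCK::cre, 6335, 6240.1 and 5109.7 in denervated control, 3453 and 3078 in innervated MCK::cre, and 3646, 3533 and 3615 in innervated control muscle. The groups did not overlap at any step of their order, with denervated MCK::cre muscle highest and innervated MCK::cre muscle lowest. The rise was 2.45-fold in MCK::cre muscle (log2 change 1.29 ± 0.15 SE, limma adjusted p = 5.2e-05) and 1.63-fold in control muscle (log2 change 0.70 ± 0.14 SE, limma adjusted p = 0.00179). The difference between genotypes in denervated muscle, 0.45 ± 0.14 SE, did not pass (limma adjusted p = 0.168), and neither did the interaction, the denervation change in MCK::cre minus that in control, at 0.59 ± 0.21 SE (limma adjusted p = 0.432).

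Lrp4, the agrin receptor (chr2:91457456-91513901), was higher in denervated MCK::cre muscle than in innervated MCK::cre muscle. It read 2124, 1899 and 2074 in denervated MCK::cre, 1196, 1979 and 2137 in denervated control, 612.7 and 956 in innervated MCK::cre, and 881.2, 838 and 1569 in innervated control muscle. In MCK::cre muscle the states were apart, whereas in control muscle denervated array 1 lay below innervated array 3. The rise in MCK::cre muscle was 2.62-fold (log2 change 1.39 ± 0.31 SE, limma adjusted p = 0.00554). Without innervated MCK::cre 1 it was 1.07 and no longer passed (limma adjusted p = 0.0758). In control muscle the log2 change was 0.70 ± 0.28 SE (limma adjusted p = 0.0782), and it passed with the replicate number as a block (limma adjusted p = 0.0455), without denervated control 1 (0.96, limma adjusted p = 0.0264) and without innervated control 3 (0.99, limma adjusted p = 0.0162). With spike-in centring, which shifts all genes upward, it was 1.53 and also passed (limma adjusted p = 0.000756). The interaction was 0.69, with a 95% interval of -0.22 to 1.59, so the larger rise in MCK::cre muscle is not shown to differ from that in control (limma adjusted p = 0.775).

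**Figure D2:**
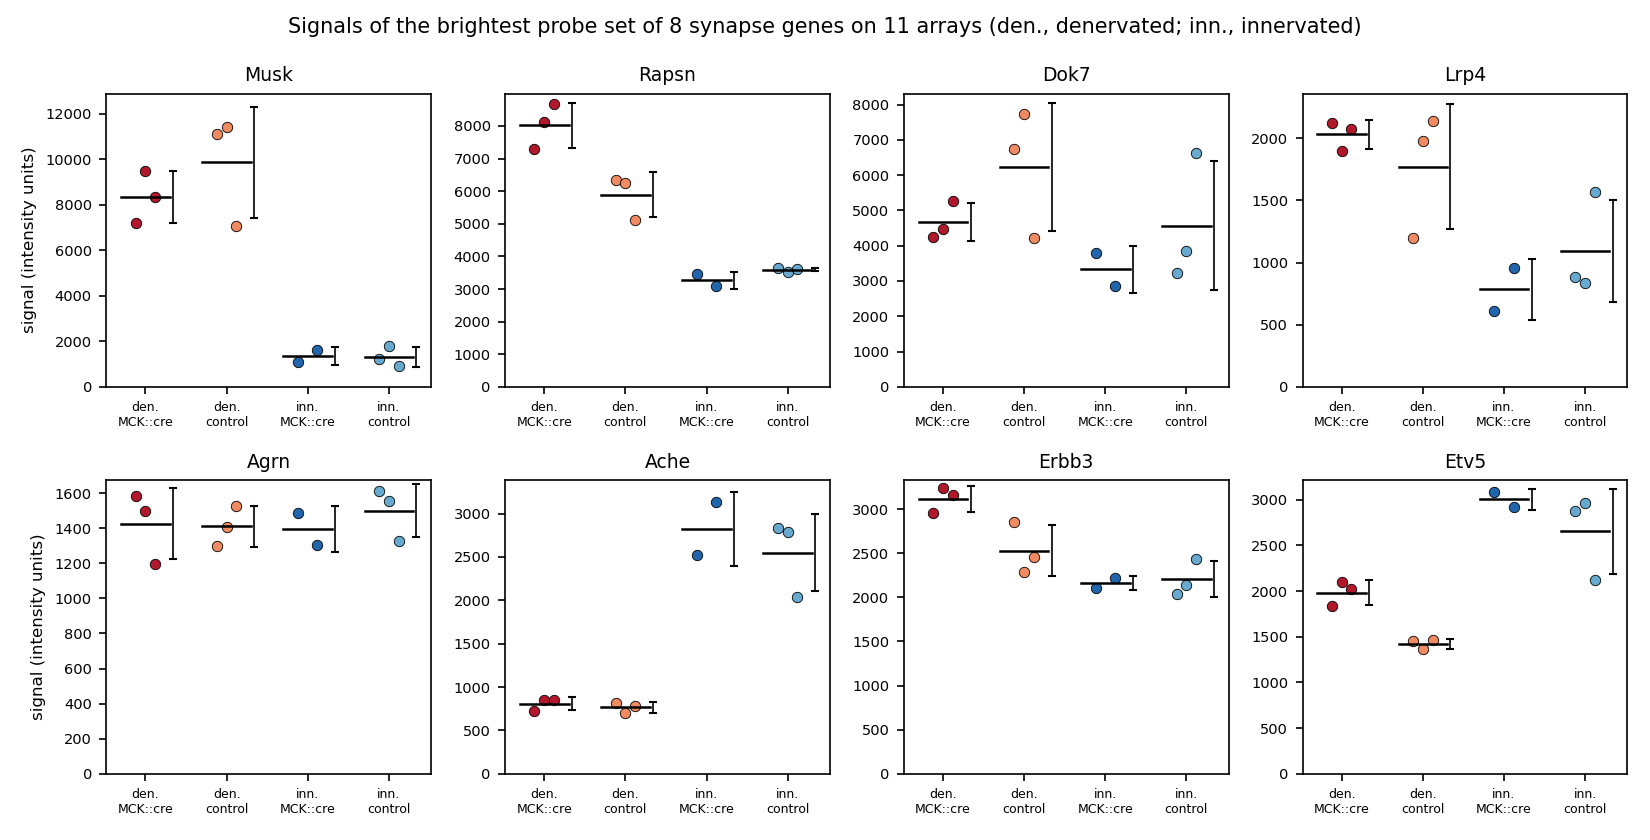
Signal in intensity units on each of the 11 arrays (points) for the brightest probe set of 8 genes, with the group mean (line) and SD (bar), denervated (den.) groups on the left and innervated (inn.) groups on the right. Musk and Rapsn are higher and Ache and Etv5 lower in all denervated arrays of a genotype than in its innervated arrays, while Agrn lies between 1195 and 1614 in every group.

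Dok7, the adaptor that activates MuSK from inside the fibre (chr5:35056571-35087839), was not called in any comparison under the deposited scaling. Its brighter probe set read 4248, 4482 and 5274 in denervated MCK::cre, 6738, 7737 and 4211 in denervated control, 3804 and 2859 in innervated MCK::cre, and 3229, 3841 and 6641 in innervated control muscle. All denervated MCK::cre arrays were above the innervated ones, whereas in control muscle denervated array 3 lay low, innervated array 3 lay high, and the states overlapped. The log2 change was 0.49 (95% interval -0.16 to 1.14) in MCK::cre muscle and 0.47 (-0.11 to 1.05) in control muscle. Without innervated control 3 the change in control muscle was 0.77 and passed (limma adjusted p = 0.0326). With spike-in centring the changes in MCK::cre and control muscle were 0.97 and 1.30 and passed (limma adjusted p = 0.0284 and 0.00107). The dimmer probe set of Dok7 had the opposite sign, -0.52 and -0.13 in MCK::cre and control muscle, and did not pass either (limma adjusted p = 0.206 and 0.743).

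Agrn encodes agrin, of which the neural form comes from the motor neuron and other forms from muscle and vessels (chr4:156165290-156197533). Its brighter probe set gave 1581, 1496 and 1195 in denervated MCK::cre, 1296, 1408 and 1525 in denervated control, 1487 and 1302 in innervated MCK::cre, and 1614, 1552 and 1327 in innervated control muscle. All groups overlapped. The log2 change was 0.02 (95% interval -0.39 to 0.44) in MCK::cre muscle and -0.08 (-0.46 to 0.29) in control muscle. Spike-in centring turned the value in control muscle to 0.74 (limma adjusted p = 0.0134), which is close to the shift of all genes. The other probe set of Agrn read between 10.2 and 54.2 on all arrays, where the trp control probe sets, taken as background, read 13.8 to 440.0, and it was not tested. The probe sets do not show which splice form was measured.

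Ache, the gene of acetylcholinesterase (chr5:137288247-137294466), fell to overlapping levels in both genotypes. Its signals were 727.6, 850.9 and 849.3 in denervated MCK::cre, 815.6, 698 and 781.8 in denervated control, 2523 and 3129 in innervated MCK::cre, and 2832, 2787 and 2034.5 in innervated control muscle. No denervated array reached the lowest innervated array, and the genotypes overlapped within each state. Ache was 3.43-fold lower after denervation in MCK::cre muscle (log2 change -1.78 ± 0.21 SE, limma adjusted p = 4.13e-05) and 3.26-fold lower in control muscle (log2 change -1.70 ± 0.18 SE, limma adjusted p = 1.72e-05). In denervated muscle the genotypes differed by 0.08 with a 95% interval of -0.32 to 0.48, and the interaction was -0.08 with an interval of -0.67 to 0.52. Ache thus moved against Musk and Rapsn in the same samples, under each of the 4 scalings tried.

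Prima1, the gene of the membrane anchor PRiMA (chr12:103194453-103242719), was the only member called between genotypes. Its denervation change was the largest of the members in control muscle, while in MCK::cre muscle those of Musk, Ache and Lrp4 were larger. Its brighter probe set read 1144, 575.8 and 1563 in denervated MCK::cre, 211.9, 202.3 and 217 in denervated control, 4002 and 1725 in innervated MCK::cre, and 3495, 4770 and 3798 in innervated control muscle. Denervated control arrays sat together near the floor, denervated MCK::cre arrays lay above them and below all innervated arrays, and the innervated genotypes overlapped. The fall was 2.57-fold in MCK::cre muscle (log2 change -1.36 ± 0.39 SE, limma adjusted p = 0.0203) and 17.7-fold in control muscle (log2 change -4.14 ± 0.35 SE, limma adjusted p = 1.94e-06). The fall in MCK::cre muscle was no longer called without denervated MCK::cre 2 (-0.97, limma adjusted p = 0.0678) or without innervated MCK::cre 1 (-0.76, limma adjusted p = 0.253), nor with median scaling (-1.06, limma adjusted p = 0.0575) or spike-in centring (-0.89, limma adjusted p = 0.0826).

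After denervation Prima1 was 4.54-fold higher in MCK::cre than in control muscle (log2 change 2.18 ± 0.35 SE, limma adjusted p = 0.00549), one of the 2.19% of genes called in that comparison. This call held under every alternative run, at log2 changes of 1.46 to 2.58. The denervated control mean, 210.4 ± 7.5 (SD, n = 3), lay within the range of the trp controls over all arrays. Both folds thus depend on the background level. On denervated control 1, 2 and 3 the highest trp signal was 440.0, 97.1 and 194.1, so Prima1 was above it on arrays 2 and 3. The dimmer probe set, which read 963.8, 626.8 and 813.1 in denervated MCK::cre and 285.3, 255.1 and 369.2 in denervated control muscle, was also higher in MCK::cre muscle, by 1.35 ± 0.25 SE (limma adjusted p = 0.0131). On that probe set the innervated values were 1046 and 1325 in MCK::cre and 1249, 1002 and 942.5 in control muscle. It fell by 1.76 in control muscle (limma adjusted p = 0.000151), while its change in MCK::cre muscle, -0.57, did not pass (limma adjusted p = 0.153). Its genotype call was lost on leaving out any of 4 denervated arrays, MCK::cre 1 or 3 or control 1 or 2 (limma adjusted p from 0.0552 to 0.0724), and with spike-in centring (limma adjusted p = 0.072).

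The interaction of Prima1 was 2.78 ± 0.52 SE with a 95% interval of 1.65 to 3.91, and its limma adjusted p of 0.053 missed the threshold. Across the alternatives that adjusted p ran from 0.0238 to 0.247. It passed with median scaling (3.01, limma adjusted p = 0.0305), with quantile normalization (2.83, limma adjusted p = 0.0484) and with the mean of both probe sets (1.99, limma adjusted p = 0.0332). It also passed without denervated MCK::cre 2 (3.18, limma adjusted p = 0.0238) and without innervated MCK::cre 1 (3.38, limma adjusted p = 0.0343). Of all genes, 0.262% had an interaction call. Innervated muscle of the genotypes differed by -0.60 on the brighter probe set, with an interval of -1.44 to 0.24 (limma adjusted p = 0.998).

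**Figure D3:**
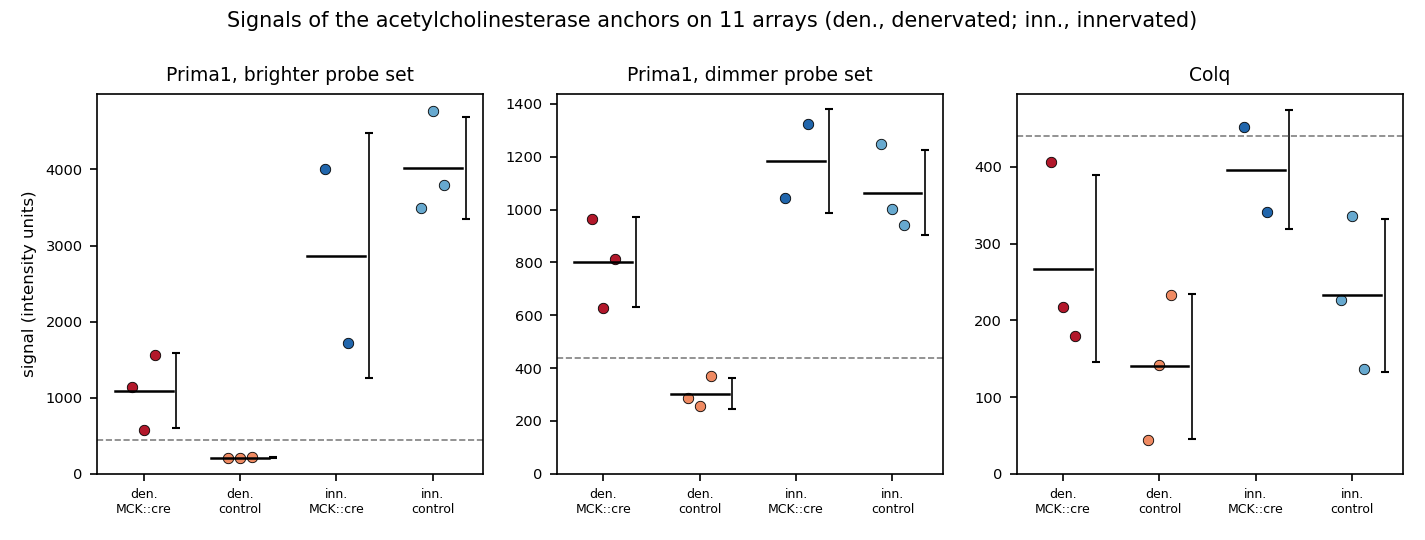
Signal in intensity units on each of the 11 arrays for both Prima1 probe sets and for Colq, with the group mean (line) and SD (bar). The dashed line is the highest trp control signal on any array, 440.0, which was read on denervated control 1. On both Prima1 probe sets the 3 denervated control arrays lie below the dashed line and the 3 denervated MCK::cre arrays above it, while Colq lies near or below the line in all groups.

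Colq, the gene of the collagen tail that anchors acetylcholinesterase in the basal lamina (chr14:31523082-31577863), has a single annotated probe set, which was below the array median on every array. It read 406.2, 217 and 179.1 in denervated MCK::cre, 44.5, 142.1 and 233.2 in denervated control, 451.3 and 341.5 in innervated MCK::cre, and 225.9, 335.7 and 136.7 in innervated control muscle. Denervated and innervated arrays overlapped in both genotypes. With all probe sets tested, its log2 change was -0.61 ± 0.65 SE in MCK::cre muscle and -0.82 ± 0.58 SE in control muscle, neither of which passed (limma adjusted p = 0.607 and 0.436). The 95% interval in control muscle, -2.05 to 0.42, holds both no change and a fall as large as that of Ache.

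Erbb3, the neuregulin receptor (chr10:128567523-128589635), was called with denervation in MCK::cre and not in control muscle under the deposited scaling. The brighter probe set gave 2955, 3236 and 3155 in denervated MCK::cre, 2850.1, 2283 and 2452 in denervated control, 2107 and 2220.2 in innervated MCK::cre, and 2036, 2144 and 2434 in innervated control muscle. Denervated MCK::cre arrays were above all others, and the remaining groups overlapped their neighbours. Erbb3 rose 1.44-fold in MCK::cre muscle (log2 change 0.52 ± 0.16 SE, limma adjusted p = 0.0318), a call lost when any of those 5 arrays was left out (limma adjusted p from 0.0525 to 0.139), without the filter on low signals (limma adjusted p = 0.0533) and with the replicate block (limma adjusted p = 0.0697). In control muscle the change was 0.19 ± 0.15 SE (limma adjusted p = 0.358), and with spike-in centring it was 1.02 and passed (limma adjusted p = 0.000558). The interaction of Erbb3, 0.33, did not pass (limma adjusted p = 0.799). The other probe set read between 31.3 and 407.3, overlapped between all groups and was not tested.

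Schwann cells also express Erbb3, and in whole muscle fewer cells of a type and less RNA per cell cannot be told apart. Sox10, a defining Schwann cell factor, averaged 667.9 in denervated MCK::cre, 671.9 in denervated control, 856.1 in innervated MCK::cre and 654.6 in innervated control muscle on its brightest probe set. A dimmer kept probe set of Sox10 averaged 518.1 and 539.9 in denervated MCK::cre and control muscle. In innervated MCK::cre and control muscle that probe set averaged 150.8 and 283.4, within the trp range. Of the 8 tested Schwann cell markers of 10 listed, 3 rose and 2 fell in each genotype. Of all genes 16.7% and 18% rose and 13.8% and 16.4% fell in MCK::cre and control muscle. The summed signal of the markers was 14608 to 19218 in denervated MCK::cre, 12161 to 14530.0 in denervated control, 32020.0 to 34267 in innervated MCK::cre and 22839 to 26651 in innervated control arrays, and none of the markers tested was at 0. Pmp22 and Mbp, the brightest in innervated muscle, averaged 7042 and 2582 in denervated and 19301 and 10677 in innervated MCK::cre muscle. A dimmer kept probe set of Mbp went the other way, at 1389 in denervated and 456.3 in innervated MCK::cre muscle. So did another, at 575.9 and 449.1, while the remaining probe sets of Mbp fell. Ngfr, Cdh19 and Gap43 averaged 2995, 1710 and 540.5 in denervated and 646.5, 620.5 and 123.9 in innervated MCK::cre muscle. By group mean each moved the same way in control muscle. The part of Schwann cells in the values of Erbb3 was not tested.

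Etv5, the synaptic ETS factor (chr16:22381313-22439570), fell in both genotypes. Its brightest probe set read 1833, 2099 and 2020.2 in denervated MCK::cre, 1449, 1362 and 1462 in denervated control, 3088 and 2923 in innervated MCK::cre, and 2881, 2960.4 and 2116 in innervated control muscle. Within each genotype the states were apart, and denervated control arrays were lowest of all. Etv5 was 1.51-fold lower in denervated MCK::cre muscle (log2 change -0.60 ± 0.18 SE, limma adjusted p = 0.0271) and 1.83-fold lower in denervated control muscle (log2 change -0.87 ± 0.16 SE, limma adjusted p = 0.00118). The call in MCK::cre muscle was lost when any of its 5 arrays was left out (limma adjusted p from 0.0502 to 0.128). That call was also lost with median scaling (-0.29, limma adjusted p = 0.337). The mean of kept probe sets and the replicate block lost it too (limma adjusted p = 0.0553 and 0.0624). With spike-in centring the changes were -0.12 and -0.05 in MCK::cre and control muscle and did not pass (limma adjusted p = 0.725 and 0.85), so that the fall is one relative to the other genes on the array. Of its 2 dimmer probe sets, 1 passed as a fall in both genotypes (-0.95 and -0.86 in MCK::cre and control muscle, limma adjusted p = 0.0433 and 0.0387), calls that were lost without the filter on low signals (limma adjusted p = 0.0775 and 0.0706). Its call in MCK::cre muscle was also lost when any of the 5 arrays was left out (limma adjusted p from 0.0539 to 0.169), and that in control muscle without denervated control 2 or 3 or innervated control 1 or 2 (limma adjusted p from 0.0637 to 0.149). The other had changes of -0.56 and -0.79 that did not pass (limma adjusted p = 0.33 and 0.122).

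In innervated muscle no member differed between genotypes by limma, also at an unadjusted p under 0.05 (0 of 9), and 0% of all genes were called. The interaction called 0 of 9 members by limma. At an unadjusted p under 0.05 there were 2, Rapsn and Prima1. The share of all genes at that unadjusted p was not counted for any comparison, so the member counts have nothing to be set against. In denervated muscle 3 members had an unadjusted p under 0.05 between genotypes, Prima1, Rapsn and Etv5, all higher in MCK::cre muscle. Arrays of the denervated genotypes did not overlap for these 3 and Erbb3, 4 of 9 members, against 23.1% of genes, and those of the innervated genotypes for Rapsn alone, against 15.9% of genes.

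Most acetylcholine receptor subunits, the proteins that these organisers gather beneath the nerve, rose with denervation. Of 5 tested subunits, 4 rose and 1 fell in MCK::cre muscle (median log2 change 2.99), and 4 rose and 1 did not pass in control muscle (median 4.34). Of all genes 16.7% rose and 13.8% fell in MCK::cre muscle, and 18% rose and 16.4% fell in control muscle. The subunit that fell in MCK::cre muscle was Chrne, the adult epsilon subunit, with log2 changes of -1.39 and -0.67 in MCK::cre and control muscle (limma adjusted p = 0.00696 and 0.104). Chrnb1, the beta subunit, rose by 2.27 and 2.11, values below those of Musk. Chrna1, the alpha subunit, rose 19.1-fold in MCK::cre and 20.3-fold in control muscle (limma adjusted p = 1.04e-08 and 3.4e-09). Chrng, the fetal gamma subunit, averaged 574.3 in denervated MCK::cre and 10285 in denervated control muscle, a difference of -4.14 ± 0.30 SE (limma adjusted p = 2.21e-05) opposite in sign to that of Prima1. Of 8 tested activity and denervation factors, 5 rose and 2 fell in each genotype, against the same shares of all genes. Myog, the myogenic factor myogenin, rose 57.8-fold in MCK::cre and 66.2-fold in control muscle (limma adjusted p = 2.61e-08 and 5.21e-09). Hdac4, a histone deacetylase that represses activity-dependent repressors of synaptic genes, rose 11.6-fold and 5.92-fold in MCK::cre and control muscle. In denervated muscle it was higher in MCK::cre by 0.84 ± 0.15 SE (limma adjusted p = 0.0101), a call lost with spike-in centring (0.46, limma adjusted p = 0.157).

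The downstream partners of MuSK moved in both directions. Of 23 tested partners and effectors, 3 rose and 3 fell in MCK::cre muscle, and 5 rose and 5 fell in control muscle, against 16.7% of genes higher and 13.8% lower in MCK::cre and 18% higher and 16.4% lower in control muscle. Cttn, the actin regulator cortactin, rose 2.59-fold in MCK::cre and 2.34-fold in control muscle. Macf1, a linker of microtubules and actin, rose 1.59-fold and 2.36-fold, and it was lower in denervated MCK::cre than in denervated control muscle by a log2 change of -0.63 ± 0.13 SE (limma adjusted p = 0.0257), a call lost with median scaling (-0.52, limma adjusted p = 0.123). Sorbs2, an adaptor of the actin cytoskeleton, was 4.80-fold lower in MCK::cre and 4.49-fold lower in control muscle. The limma adjusted p of these denervation changes lay at or below 0.00416. With spike-in centring the partners gave 8 rises and 1 fall in MCK::cre and 16 rises and 1 fall in control muscle, and with median scaling 7 and 2, and 6 and 2. The shares of all genes called with these scalings were not counted. Of the 23, 12 in MCK::cre and 13 in control muscle lay above the median of all genes as deposited. Both scalings shift all genes of an array nearly alike, so these counts could hardly change with them. With quantile normalization, which could change them, they were 11 and 13.

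Genes of the synaptic matrix and the dystrophin-linked postsynaptic complex fell more often than they rose in MCK::cre muscle, 8 against 2 of 19 tested, and 6 fell and 4 rose in control muscle. Of all genes 13.8% fell and 16.7% rose in MCK::cre muscle, and 16.4% fell and 18% rose in control muscle. The median log2 changes of the 19 genes were -0.35 and -0.23 in MCK::cre and control muscle, below the median of all genes. With quantile normalization they were -0.38 and -0.21, again below it. With spike-in centring they were 0.12 and 0.60, and as it shifts all genes of an array alike, their place below the median could not change. With that centring 2 fell and 5 rose in MCK::cre and 1 fell and 10 rose in control muscle, and with median scaling 4 fell and 4 rose in each. Lamb2, the laminin beta chain of the synaptic basal lamina, was 1.79-fold lower in MCK::cre and 2.50-fold lower in control muscle (limma adjusted p = 0.0013 and 1.12e-05), the first of which no longer passed with spike-in centring (limma adjusted p = 0.215). Ncam1, an adhesion molecule that spreads over denervated fibres, rose 3.59-fold and 6.75-fold. Dmd, the dystrophin gene, was 2.37-fold and 2.20-fold lower, and with spike-in centring this no longer passed in control muscle (limma adjusted p = 0.242).

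Erbb3 and Etv5 belong to neuregulin signalling, which acts in part through ERK. Of 7 tested neuregulin, ERBB and ETS genes, 1 rose in each genotype, where 16.7% and 18% of all genes rose in MCK::cre and control muscle. This was Erbin, an ERBB2-binding scaffold, which rose 2.54-fold in MCK::cre and 2.22-fold in control muscle (limma adjusted p = 0.000148 and 0.000161). Gabpa, the ETS factor that binds the N-box, had log2 changes of -0.28 and -0.20 that did not pass (limma adjusted p = 0.381 and 0.511), and those of the neuregulin gene Nrg2, 1.04 and 0.49, did not pass either (limma adjusted p = 0.292 and 0.604). Of 8 tested ERK feedback genes, 2 rose and 1 fell in MCK::cre muscle, and 3 rose and 1 fell in control muscle, against calls in 30.5% and 34.4% of all genes. The ERK phosphatase gene Dusp4 rose 5.94-fold and 5.41-fold and its relative Dusp5 15.5-fold and 14.8-fold in MCK::cre and control muscle. Dusp5 averaged 49.7 and 60.4 in innervated MCK::cre and control muscle, within the trp range. Spred1, an inhibitor of the ERK pathway, rose 2.22-fold in control muscle (limma adjusted p = 0.000801), and in MCK::cre muscle its change was 0.28 (limma adjusted p = 0.381), which passed with spike-in centring (0.76, limma adjusted p = 0.0279). The interaction of Spred1, -0.87, did not pass (limma adjusted p = 0.426).

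Of 6 listed genes for acetylcholine synthesis and transport and the second cholinesterase, 3 were bright enough to test, with 1 rise and 1 fall in each genotype. Of all genes 30.5% and 34.4% were called in MCK::cre and control muscle. Bche, butyrylcholinesterase, was 1.62-fold lower in MCK::cre and 1.66-fold lower in control muscle (limma adjusted p = 0.0452 and 0.0181). With spike-in centring its changes were -0.22 and 0.09 and did not pass (limma adjusted p = 0.585 and 0.744). Slc44a1, a choline transporter, rose 1.93-fold and 2.03-fold (limma adjusted p = 0.000716 and 0.000127). Slc44a2, a related transporter, had changes of -0.64 and -0.22 that did not pass (limma adjusted p = 0.0748 and 0.498).

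**Figure D4:**
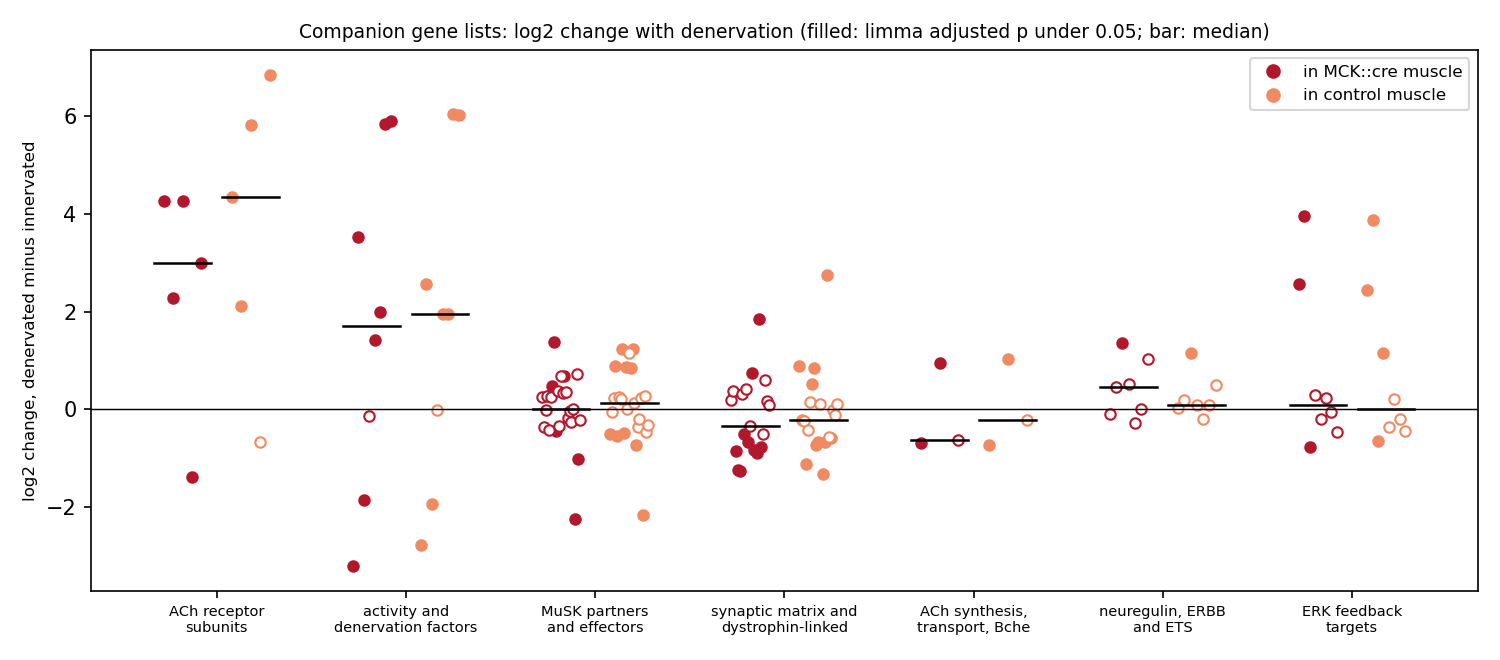
Log2 change with denervation (denervated minus innervated) of each tested gene in 7 companion lists, in MCK::cre muscle (left column of each list) and control muscle (right column). Filled points passed at a limma adjusted p under 0.05 and black bars are list medians, which are 2.99 and 4.34 for receptor subunits and close to 0 for MuSK partners.

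Other genes had patterns close to those of Musk and Ache. Likeness was measured as the root mean square difference over the 11 arrays between log2 signals centred on each gene's own mean, among 12205 other genes. Nearest to Musk were Slc9a9, a sodium-proton exchanger gene, at 0.24, Myc, a transcription factor gene, at 0.29, and Tnfrsf23, a receptor gene of the TNF family, at 0.30, where Musk itself varied by 1.42 about its mean. Slc9a9 averaged 2518 in denervated MCK::cre, 3353 in denervated control, 452.4 in innervated MCK::cre and 463.3 in innervated control muscle. Nearest to Ache were Nedd4l, a ubiquitin ligase gene, at 0.14, Oxct1, a ketone body enzyme gene, at 0.18, and Slc25a12, a mitochondrial carrier gene, at 0.18, where Ache varied by 0.87. Nedd4l averaged 2689 in denervated MCK::cre, 2296 in denervated control, 9037 in innervated MCK::cre and 8258 in innervated control muscle. The arrays fall into denervated and innervated sets, so any gene with a denervation change of like size lies near.

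Markers of the tissue and of other cells shifted with denervation as well. Muscle fibre markers were bright on every array, with summed signals of 1237187 to 1539402 in denervated MCK::cre, 1189447 to 1720689 in denervated control, 1946394 to 2187048 in innervated MCK::cre and 1790591 to 2058959 in innervated control muscle, and as deposited 8 of 8 fell in MCK::cre and 6 of 8 in control muscle, where 13.8% and 16.4% of all genes fell. These falls depended on the scaling: 0 of 8 passed in MCK::cre muscle with median scaling, quantile normalization or spike-in centring, and 4, 0 and 0 passed in control muscle. Macrophage and leukocyte markers rose in 8 of 10 and 3 of 10 cases in MCK::cre and control muscle, where 16.7% and 18% of all genes rose. The counts were 10 and 5 with median scaling, 9 and 3 with quantile normalization and 10 and 10 with spike-in centring. Their sums were 102235 to 114554 in denervated MCK::cre, 78636 to 118313 in denervated control, 20301 to 22583 in innervated MCK::cre and 24987 to 36305 in innervated control muscle. Between denervated genotypes, where Prima1 differed, 2 of 6 satellite cell and myoblast markers (3 with spike-in centring) were lower in MCK::cre muscle, where 1.14% of all genes were, with sums of 16574 to 22355 in MCK::cre and 25911 to 33470.0 in control muscle. By group mean Itga7, Sdc4 and Mymk were lower in MCK::cre muscle (3386 against 8293, 5952 against 11298 and 177.5 against 1897). The other kept probe set of Sdc4 differed little, at 3457 against 3710, and Itga7 is also on the synaptic matrix list. Pax7, Myf5 and Cdh15 were higher in MCK::cre muscle (913.6 against 693.4, 1616 against 1281 and 8044 against 5974). None of the fibre, Schwann cell, leukocyte, endothelial or fibroblast markers tested was called between denervated genotypes. Their part in the values of Prima1 was not tested.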

How the data were processed

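RNA of 11 muscle samples was measured on Affymetrix arrays. The deposited files hold 1 intensity per probe set and array, on a linear scale. Scaling by the authors had been such that the 2% trimmed mean of every array was 2500.0, as the values themselves show. Their software was not given in the sources used here, and no detection calls were used. Array medians lay between 442.5 and 604.6. Groups came from the sample titles.

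Signals were used as log2(signal + 16), with no added normalization. Kept were probe sets brighter than the median of their array on at least 2 arrays, and 64 control probe sets were left out, which left 26170 probe sets and 12214 genes, 13 and 9 of them members. The annotation gave 34958 probe sets a single symbol, 932 several and 9211 none. All 11 arrays entered 1 model with 4 group means in limma 3.58.1 in R 4.3.3 (eBayes with trend, p adjusted by Benjamini-Hochberg within a comparison, threshold 0.05). The 5 comparisons were fitted, and the fit was tested on simulated data. Errors of signals are SD between arrays, whose number sets the precision.

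Control arrays of equal number deviated together (r = 0.11, 0.22 and 0.30 across probe sets), and arrays of the other groups did not (-0.18 to 0.05), so the number was tried as a block. Named were all members, up to 3 genes with the smallest p for denervation in control from each companion list, and the 3 genes most like Musk, Ache and Colq, of which Colq had too low a signal for that measure. Members and lists were chosen with earlier results of these data known. Alternatives were other pseudocounts, filters, scalings, probe set averages, smaller fits, the block and each array left out.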

Additional observations from a re-analysis of the deposited data

Results flagged for a closer look

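The groups of Rapsn lay apart in opposite directions between genotypes. In denervated muscle all 3 MCK::cre arrays (7293 to 8663) were above all 3 control arrays (5109.7 to 6335), while in innervated muscle both MCK::cre arrays (3078 and 3453) were below all 3 control arrays (3533 to 3646). The interaction was 0.59 (limma adjusted p = 0.432), so the difference between the states was tested and did not pass. Arrays do not overlap between genotypes for 23.1% of all genes in denervated and 15.9% in innervated muscle.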

How the results depend on the processing

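Of 1124 values of single genes and probe sets under 23 alternatives, 1065 kept their side of the threshold, 43 lost a call, 15 gained one and 1 turned with a call; 54 uncalled values changed sign without passing. The calls of Musk, Rapsn and Ache with denervation and of Prima1 with denervation in control and with genotype in denervated muscle held under every alternative run. Agrn turned with spike-in centring, at 0.74 in control muscle, by the shift of all genes that this scaling makes. Called members were 8 in control muscle with spike-in centring, against 5, and 1 for the interaction, against 0, with median scaling, with quantile normalization and with the mean of kept probe sets. With 1 array left out they were 3 to 5 of 9 in MCK::cre muscle, 5 to 7 in control muscle, 1 between denervated genotypes, 0 between innervated genotypes and 0 to 1 for the interaction. The lowest count in MCK::cre muscle, 3, came without innervated MCK::cre 1, where the remaining innervated array is assumed to vary like the other groups. Without denervated MCK::cre 2 it was 4. With the replicate block 6 members were called in control muscle, also with control arrays alone, the addition being Lrp4, and 5 in MCK::cre muscle, where Erbb3 and Etv5 were lost; apart from these and a dimmer probe set of Etv5 in MCK::cre muscle (limma adjusted p = 0.0747) the block changed no call. A larger pseudocount and the block in control arrays alone were chosen after seeing the data. Without denervated control 3, whose note gives another time, 5 members were called in control muscle. Signals near the trp controls limit Colq, the dimmer probe sets of Agrn and Erbb3, and Prima1 in denervated control muscle.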
